A study of Medicago truncatula with 6 samples.

Results

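Small RNAs that counted on long terminal inverted repeat (TIR) DNA transposons were described in roots of the model legume Medicago truncatula. The annotation names each transposon copy in the genome as a fragment that matches a source element, and a fragment was included when its source element was longer than 800 bp, from the coordinates in its ID. The rule used the annotation alone and no measured value. It gave 82973 fragments of 5848 source elements, out of 400216 annotated features and 97165 TIR fragments. All libraries came from mock-treated roots with the genotype label WT. In 3 libraries the roots carried RNAi against SKI3, and in 3 they carried RNAi against GUS, a reporter gene of bacterial origin, as the control. The labels do not name the promoter of the RNAi constructs or say whether replicates were separate cultures of roots, so p-values measure the spread between these libraries, which may be technical. The IDs are not paired with gene names, and the knock-down of SKI3 was not checked here.

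TIR elements are DNA transposons that end in inverted copies of the same sequence and move by cutting and pasting, with a transposase that the longer, autonomous copies encode. Short copies often keep only the ends and depend on the transposase of longer ones. In plants, small RNAs of different lengths silence transposons at the level of transcription and by cleavage of their transcripts. The Superkiller complex, to which the SKI3 protein belongs, feeds RNA to the exosome for decay, and in Arabidopsis loss of this complex lets extra small interfering RNAs form from transcripts cut by miRNAs.

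The first 3 letters of an ID give the superfamily by the usual code. DTX marks TIR elements of no assigned superfamily, DTT the Tc1-Mariner, DTM the Mutator, DTA the hAT and DTC the CACTA superfamily. DTX made up 79.1% of the fragments, DTT 13.6%, DTM 5.22%, DTA 1.31% and DTC 0.711%. Source elements ran from 801 to 11532 bp, with a median of 2036 bp and a median of 7 fragments per element. Only 17.9% of the fragments lay on the chromosome of their source element. The IDs give no length for a fragment itself, so a long source element does not mean a long fragment.

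Total counts per library ran from 2168297 to 3974092, and a header line left in 1 table names reads of 21 to 22 nt. A library held counts on 52.3% to 60.02% of the fragments. Over the 6 libraries together, 15801 fragments (19.0%) had 0 counts, 35428 had 1 to 9, 27269 had 10 to 99 and 4475 had at least 100. The highest 1% of fragments, 830 in number, held 21.3% of the counts on long TIR elements, and the highest 10% held 64.3%. Most fragments therefore sat at or near the floor of 3 counts, which is between 0.755 and 1.38 counts per 1000000 (CPM) in a library and covers counting error only.

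Long TIR elements held slightly more of the counts in SKI3 RNAi than in GUS RNAi roots when libraries were scaled by their totals, and this difference was as large as the shift of all features. They held 11.67%, 12.54% and 11.70% of the counts in SKI3 RNAi replicates 1 to 3, against 10.98%, 11.60% and 10.57% in GUS RNAi replicates 1 to 3. The groups did not overlap, by a margin of less than 0.1 percentage points between SKI3 RNAi replicate 1 and GUS RNAi replicate 2. The means were 11.97% ± 0.496 in SKI3 RNAi and 11.05% ± 0.520 in GUS RNAi (SD, n = 3 each), with p 0.1 in an exact two-sided permutation test, which is the lowest value this design of 3 and 3 libraries reaches. On the log2 scale the summed CPM differed by 0.12, and with the same scaling all tested features had a median log2 fold change of 0.12. The difference in share was 0.919 percentage points, and 0.287 without the 10 most counted features. On library sizes corrected with TMM factors, which place the median of all tested features at 0.02, the summed level was 115786 ± 4017 CPM in SKI3 RNAi and 114142 ± 582 CPM in GUS RNAi, a log2 difference of 0.02 (exact permutation p 0.7). In whole roots, fewer cells of a type and less RNA per cell cannot be told apart.

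The order of the superfamilies was the same in both kinds of root. DTX elements summed to 94031 ± 4045 CPM in SKI3 RNAi and 86203 ± 4039 CPM in GUS RNAi (SD, n = 3 each, here and for the next values). The Tc1-Mariner elements summed to 15896 ± 793 CPM in SKI3 RNAi and 14865 ± 704 CPM in GUS RNAi, and the Mutator elements to 6953 ± 219 CPM in SKI3 RNAi and 6795 ± 329 CPM in GUS RNAi. The hAT elements summed to 1856 ± 109 CPM in SKI3 RNAi and 1766 ± 97.7 CPM in GUS RNAi. CACTA elements, the smallest class, summed to 963 ± 10.9 CPM in SKI3 RNAi and 880 ± 64.6 CPM in GUS RNAi. In DTX alone the groups did not overlap, with a log2 difference of 0.13, an exact permutation p of 0.1 and an adjusted p of 0.5 over the 5 superfamilies. The log2 differences of the others were 0.10 for Tc1-Mariner, 0.03 for Mutator, 0.07 for hAT and 0.13 for CACTA, with adjusted p-values of 0.5 or 0.6 in exact permutation tests. With TMM factors the sign turned for Mutator, at -0.06, and for hAT, at -0.02.

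**Figure D1:**
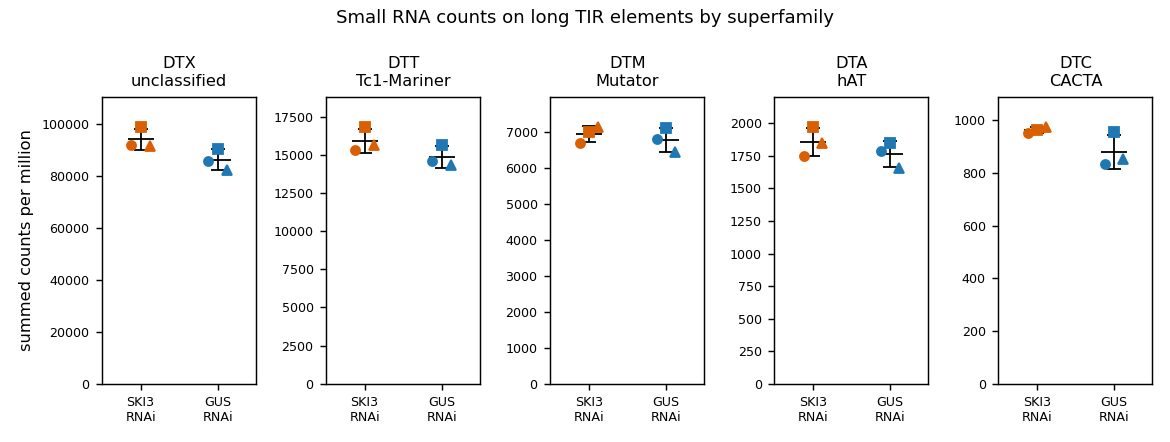
Summed CPM on long TIR elements of each superfamily, 1 panel per superfamily with its own axis from 0. Points are libraries (circle, square and triangle for replicates 1, 2 and 3), and bars are the mean and SD of 3 libraries. The groups lie apart in the DTX panel alone, and there by a small margin.

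Fragments of long TIR elements carried on average fewer small RNA counts than fragments of short ones, with source elements of at most 800 bp, in every superfamily except Mutator. Over all superfamilies the mean was 1.39 ± 0.0817 CPM per fragment for 82973 long and 1.55 ± 0.130 CPM for 14192 short fragments (SD over 6 libraries). Long was below short in 6 of 6 libraries, at 0.898-fold, with an exact two-sided sign-flip permutation p of 0.03125, the smallest that 6 libraries allow. This difference was one between the classes as wholes and did not hold at every length. Long elements of 1501 to 3000 bp had 1.56 CPM per fragment. At the 800 bp limit, fragments of elements of 801 to 850 bp had 1.25 CPM and those of 751 to 800 bp 0.986 CPM. Fragments with 0 counts made up 19.0% of the long and 13.6% of the short class. Per kb of source element, long elements had 5.96 ± 0.351 CPM and short ones 12.03 ± 1.01 CPM, a 0.496-fold level with the same p in the exact permutation test. The long fragments came from 19316 kb of source elements and the short ones from 1825 kb, which gives long elements fewer fragments per kb. The annotation fixes that number, and the level per kb holds it besides the counts per fragment. Fragment lengths are unknown, and neither measure is a level per length of the copies counted.

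By superfamily, the gap was widest in CACTA elements, at 1.56 ± 0.104 CPM per long and 3.09 ± 0.450 CPM per short fragment (SD, 6 libraries), and in hAT elements, at 1.66 ± 0.0964 CPM per long and 2.63 ± 0.175 CPM per short fragment. Tc1-Mariner elements had 1.36 ± 0.0775 CPM per long and 1.69 ± 0.171 CPM per short fragment, and DTX elements 1.37 ± 0.0854 CPM per long and 1.51 ± 0.124 CPM per short fragment. Mutator elements went the other way in the mean, with 1.59 ± 0.0610 CPM per long and 1.33 ± 0.103 CPM per short fragment. Their share of fragments with 0 counts did not, at 13.2% of the long and 9.99% of the short class. The median Mutator fragment had 8 counts in the long and 7 in the short class over the 6 libraries. Each of the 5 differences in mean level held in 6 of 6 libraries, with an adjusted p of 0.03125 in the exact permutation test. The log2 ratio of long to short was larger in Mutator than in DTX by 0.40, than in Tc1-Mariner by 0.57, than in hAT by 0.93 and than in CACTA by 1.24, each in 6 of 6 libraries with an adjusted exact permutation p of 0.03125. That comparison was chosen after the values were seen, and its outcome was fixed in advance. In every library long lay above short in Mutator and below it in the other superfamilies. Its p-values therefore add nothing to the 5 differences. The 6 libraries share one annotation, and the short CACTA class held only 73 fragments, against 590 long ones.

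**Figure D2:**
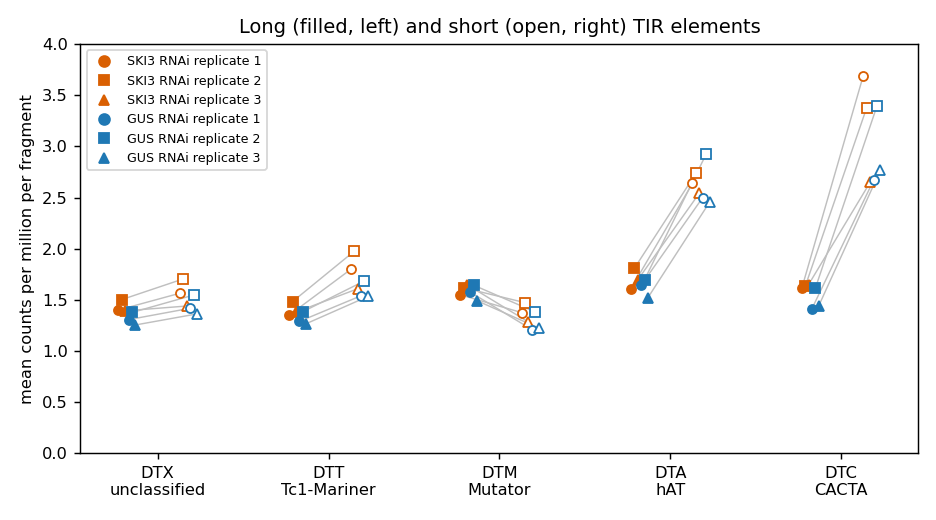
Mean CPM per fragment for long (filled, left) and short (open, right) source elements of each superfamily, with a line for each of the 6 libraries. Lines run up toward the short class in 4 superfamilies and down in Mutator, where long fragments averaged 1.59 and short ones 1.33.

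The ratio of long to short elements did not shift detectably with SKI3 RNAi. Long elements held 5.094, 5.043 and 5.575 times the summed CPM of short ones in SKI3 RNAi replicates 1 to 3, against 5.356, 5.142 and 5.301 times in GUS RNAi replicates 1 to 3. SKI3 RNAi replicate 3 lay above all GUS RNAi libraries and the other SKI3 RNAi libraries lay below them. The log2 difference between groups was -0.0091 with an exact permutation p of 0.9.

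Other transposon classes gave different levels per fragment. Helitrons, which move as rolling circles, averaged 1.74 ± 0.0902 CPM per fragment, and long TIR elements were at 0.797-fold of that level in all 6 libraries. TRIM retrotransposons, which are short non-coding retroelements, averaged 2.49 ± 0.141 CPM, and long TIR elements were at 0.558-fold. Both differences had an adjusted p of 0.0417 in the exact permutation test over 4 comparisons. LTR retrotransposons averaged 1.38 ± 0.0544 CPM per fragment, and long TIR elements were above them in 3 of 6 libraries (1.01-fold, adjusted exact permutation p 0.625). Those 3 were the SKI3 RNAi libraries, at 1.406, 1.512 and 1.41 CPM against 1.356, 1.441 and 1.36 CPM for LTR retrotransposons. In the GUS RNAi libraries long TIR elements lay below, at 1.323, 1.398 and 1.274 CPM against 1.35, 1.445 and 1.308 CPM. The test took all 6 libraries together, and this split by group was not tested. In this paragraph the p-values measure agreement between libraries on the same fragments, and not the spread between fragments or families. Within the long TIR elements, the 15895 fragments of families that the IDs do not mark as singletons had 1.68 ± 0.129 CPM each and the 67078 fragments of singleton families 1.32 ± 0.0715 CPM, a 1.28-fold difference in 6 of 6 libraries with an adjusted exact permutation p of 0.0417.

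Levels per fragment changed with the length of the source element, first up and then down. Elements of 801 to 1500 bp had 1.45 CPM per fragment, those of 1501 to 3000 bp 1.56, those of 3001 to 6000 bp 1.36, those of 6001 to 9000 bp 1.343 and those of 9001 to 12000 bp 0.967 times the last, as means over 6 libraries. The step up to 1501 to 3000 bp (1.08-fold), the step down to 3001 to 6000 bp (0.870-fold) and that down to 9001 to 12000 bp each held in 6 of 6 libraries, with an adjusted p of 0.0417 over 4 exact permutation tests. Between 3001 to 6000 bp and 6001 to 9000 bp the adjusted p was 0.1875 in the same test. Here too the p-values measure agreement between libraries on the same fragments, and not the spread between elements. Longer elements had more fragments, 4.42 per source element at 801 to 1500 bp and 39.5 at 9001 to 12000 bp. On the sides of the 800 bp limit, fragments of elements of 801 to 850 bp had 1.25 CPM and those of 751 to 800 bp 0.986 CPM, both below the mean of every length class above. The longer side was the higher one in every library, the reverse of the difference between all long and all short fragments.

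**Figure D3:**
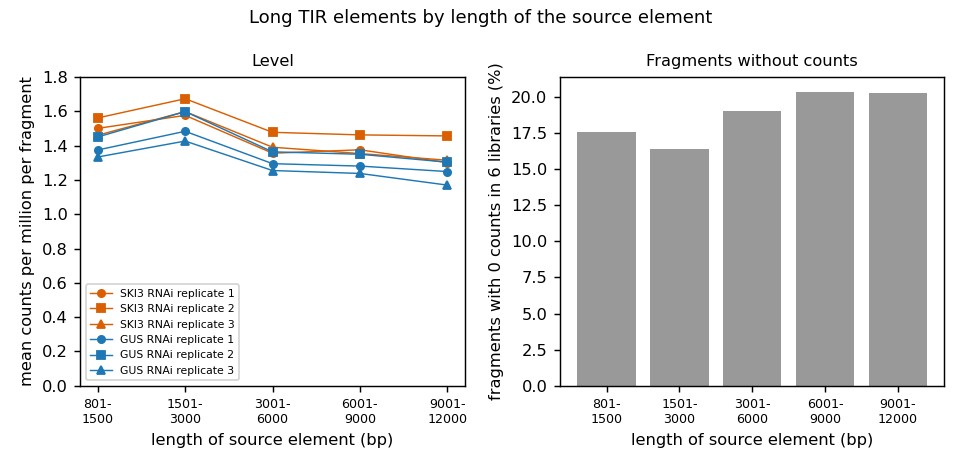
Left, mean CPM per fragment in each library against the length of the source element. Right, percent of fragments with 0 counts in all 6 libraries, which ran from 16.4% at 1501 to 3000 bp to 20.4% at 6001 to 9000 bp.

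Fragments of long TIR elements on the 8 chromosomes had between 1.31 and 1.46 CPM each. Chromosome 3 had the highest mean and chromosome 8 the lowest in 6 of 6 libraries. The 769 fragments on unplaced sequence had 0.952 CPM each. The annotation also lists 26 fragments in the plastid, with 0.4085 CPM each, and 15 in the mitochondrion, where a single fragment held 256 of 267 counts.

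The most counted source elements had many copies with very unequal levels. Element 12776 (DTX singleton family 7625, source at chr7:21097246-21104150 in the coordinates of the IDs) had 115 fragments on all 8 chromosomes. Its summed level was 1193, 1209 and 1648 CPM in SKI3 RNAi, against 1218, 1284 and 1380 CPM in GUS RNAi. The highest fragment had 45.1 CPM, the median one 2.80 CPM, and the 27 highest held 77.8% of the counts. Element 8602 (DTX singleton family 5148, chr4:59444024-59446818) had 41 fragments, with 803, 726 and 1070 CPM in SKI3 RNAi and 848.5, 955 and 988 CPM in GUS RNAi. SKI3 RNAi replicate 3 was the highest library for both elements, and the groups overlapped. In edgeR, on fragments summed by source element, the log2 fold change was -0.03 ± 0.205 (SE) for element 12776 and -0.20 ± 0.210 for element 8602, with adjusted p-values of 0.983 and 0.853.

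The next source elements were element 4978 (DTX, chr3:24446493-24452770) with 483 ± 51.4 CPM in SKI3 RNAi and 518 ± 43.4 CPM in GUS RNAi, and the CACTA element 9742 (chr5:21860663-21870464) with 484 ± 61.0 CPM in SKI3 RNAi and 465 ± 29.3 CPM in GUS RNAi (SD, n = 3 each). The Tc1-Mariner element 12661 (chr7:16112557-16120423) had 155 fragments, the most of any long element, and 502 ± 56.9 CPM in SKI3 RNAi and 443 ± 44.1 CPM in GUS RNAi. Their adjusted p-values in edgeR were between 0.846 and 0.978. The median of the 114 fragments of element 9742 was 0.326 CPM, and its 10 highest held 76.6% of its counts. The 5 elements together held 3.19% of the counts on long TIR elements. Element 9299 (DTX, chr5:10599292-10610823), at 11532 bp the longest element with at least 100 counts, had 42.8, 50.3 and 28.7 CPM in SKI3 RNAi and 45.5, 46.6 and 40.4 CPM in GUS RNAi, and 7 of its 17 fragments had 0 counts.

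Among single fragments, the highest was fragment 4320 on chromosome 5 (element 13562, DTX family 33, source at chr7:41792901-41800771). Another annotated feature had the same counts in all 6 libraries, so this level cannot be assigned to the fragment alone. Fragment 4320 had 146.6, 148.4 and 188.0 CPM in SKI3 RNAi replicates 1 to 3 and 95.4, 120.4 and 222.0 CPM in GUS RNAi replicates 1 to 3. Both the lowest and the highest value were in GUS RNAi, and the log2 fold change was 0.04 ± 0.309 (SE, adjusted p 0.989 in edgeR). Fragment 2042 on chromosome 4 (element 6599, DTX) had 104.9, 126.5 and 90.0 CPM in SKI3 RNAi and 109.5, 139.7 and 101.5 CPM in GUS RNAi.

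The other 8 of the 10 highest fragments were fragments 23253 and 29727 of the Mutator element 2968 (chr2:18278094-18279640), 4 fragments of element 8602, 1 of element 655 (DTX, chr1:16247711-16248978) and 1 of element 15042 (DTX family 5, chr8:23658577-23664943). Fragment 8475 on chromosome 8, of element 8602, had 219, 157 and 291 counts in SKI3 RNAi and 351, 216 and 381 counts in GUS RNAi. Fragment 20869 on chromosome 7, of element 655, had 194, 146 and 285 counts in SKI3 RNAi and 317, 204 and 350 counts in GUS RNAi. These copies of different source elements had much the same profile over the libraries, with SKI3 RNAi replicate 3 highest and SKI3 RNAi replicate 2 lowest in CPM. Fragment 17935 on chromosome 8, of element 15042, had another profile, at 99.6, 52.1 and 173.4 CPM in SKI3 RNAi and 98.1, 45.7 and 74.0 CPM in GUS RNAi, with both replicates 2 lowest. All 10 overlapped between groups, and their adjusted p-values in edgeR were between 0.855 and 0.989.

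**Figure D4:**
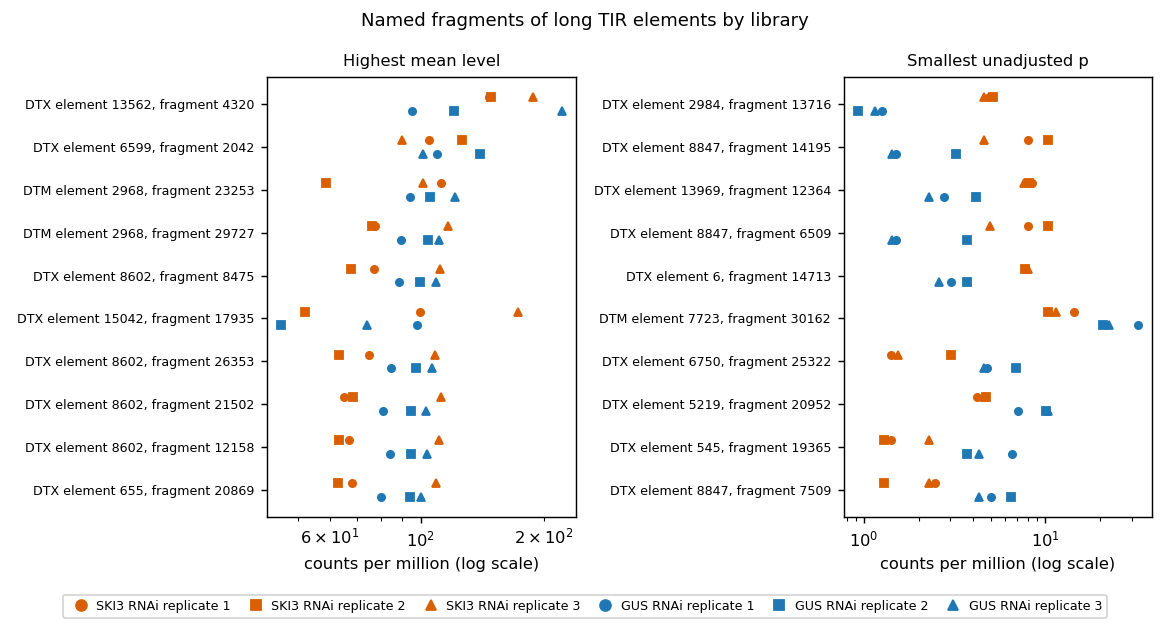
CPM in each library (log axes) for the 10 fragments with the highest mean level (left) and the 10 with the smallest unadjusted p (right, 5 higher and then 5 lower in SKI3 RNAi). Values of the groups mix on the left and lie apart on the right, where levels are mostly under 10 CPM.

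Some fragments had identical counts. Of 8103 tested fragments of long TIR elements, 376 matched another tested feature in all 6 counts. For 237 of these the partner was another long TIR fragment, for 60 a promoter and for 36 a nuclear gene. A count of fragments is therefore not always a count of separate loci.

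Families that the IDs do not mark as singletons were compared next. There were 78 of them with at least 100 CPM on long elements, of which 63 had several long source elements and 15 had 1. DTX family 33 was the highest, at 1705, 2067 and 1555 CPM in SKI3 RNAi and 1494, 1587 and 1406 CPM in GUS RNAi. DTX family 36 had 1419, 1873 and 1341 CPM in SKI3 RNAi and 1218, 1243 and 1063 CPM in GUS RNAi, a 1.303-fold difference in which the groups did not overlap. DTX family 49 had 1658, 1267 and 1306 CPM in SKI3 RNAi and 1403, 1425 and 1354 CPM in GUS RNAi, with replicate 1 of SKI3 RNAi highest and its other libraries lowest. SKI3 RNAi replicate 2 was the highest library for families 33 and 36.

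In 15 of the 78 families every SKI3 RNAi library lay above every GUS RNAi library and in 4 every one lay below, 19.2% and 5.13%. Over 260 transposon families of all classes that are not marked as singletons, with the same minimum, 13.8% lay above and 9.23% below. Of the 63 families with several long source elements, 13 lay above and 3 below. The 4 lower families were DTT family 32, DTX family 27, DTM family 2 and, with 1 long source element, DTX family 251, at 0.658-fold, 0.767-fold, 0.828-fold and 0.877-fold. DTT family 32 had 175, 119 and 193 CPM in SKI3 RNAi, against 252, 237.5 and 236.9 CPM in GUS RNAi. The smallest adjusted p over the 78 families was 0.410 in the exact permutation test. With TMM factors, 8 of the 78 families lay above and 7 below, against 6.92% above and 15.0% below among the 260.

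Single fragments were tested across all 48283 features with enough counts. The 8103 tested fragments of long TIR elements, 9.77% of them all, held 63.6% of the counts on long TIR elements. In the quasi-likelihood test of edgeR, adjusted over all features by Benjamini-Hochberg, 0 of the 8103 had an adjusted p under 0.05, as had 0.0% of all tested features, and DESeq2 also gave 0. Among these fragments no adjusted p went below 0.743. An unadjusted p under 0.05 was reached by 459 fragments, or 5.66%, beside 6.58% of all tested features. Of these, 251 were higher and 208 lower in SKI3 RNAi, 3.10% and 2.57%, beside 3.58% and 2.99% of all tested features, while DESeq2 gave 61 higher and 75 lower, 0.753% and 0.926%, beside 1.01% and 1.36%. On library totals without TMM factors edgeR gave 387 higher and 110 lower, 4.78% and 1.36%, beside 5.3% and 1.74% of all tested features, whose median log2 fold change was then 0.12. Without a filter on low counts, 34 fragments passed adjustment, 0.0506% of 67172, beside 0.109% of all features in that fit. The median log2 fold change was 0.02, as it was for all tested features, and 90% of the fragments lay between -0.61 and 0.64. Groups did not overlap in 602 higher and 378 lower fragments, 7.43% and 4.66%, beside 7.35% and 5.6% of all tested features. These shares were near those of all features.

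**Figure D5:**
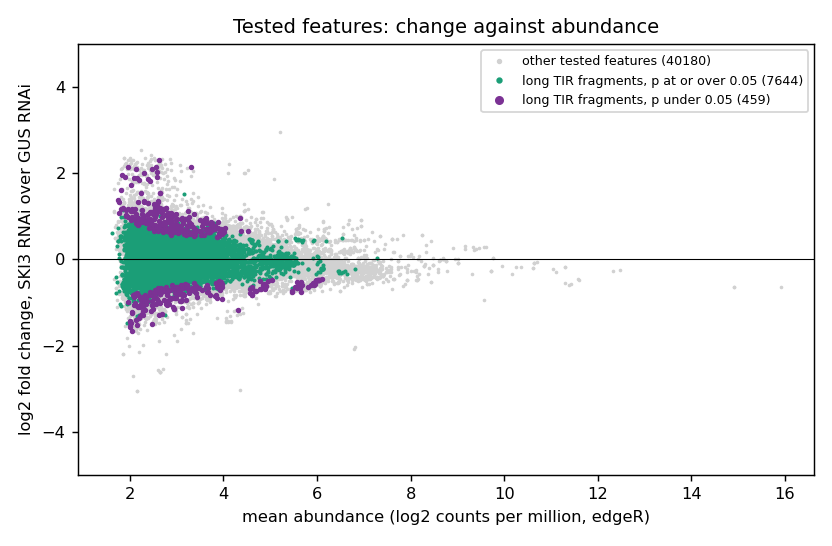
Log2 fold change of SKI3 RNAi over GUS RNAi against mean abundance for all tested features, with fragments of long TIR elements in colour. The 459 fragments with an unadjusted p under 0.05 lie on both sides of 0, 251 above and 208 below, and none passed adjustment.

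Mutator fragments had more lower than higher members at an unadjusted p under 0.05. Of 437 tested, 36 were lower and 9 higher in SKI3 RNAi, 8.24% and 2.06%, beside 2.99% and 3.58% of all tested features. The 36 came from 17 source elements, with 8 from element 2961, 5 from element 7723 and 5 from element 11676. Copies of an element may share reads. Mutator elements summed to 7.30%, 7.10% and 7.81% of the CPM of DTX elements in SKI3 RNAi, against 7.95%, 7.87% and 7.84% in GUS RNAi. The groups did not overlap, with SKI3 RNAi replicate 3 close to GUS RNAi, and the exact permutation p was 0.1. This comparison of both superfamilies was chosen after the values were seen.

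The 5 higher fragments with the smallest p had few counts. Fragment 13716 on chromosome 5 (element 2984, DTX, source at chr2:18599513-18603286) had 14, 12 and 12 counts in SKI3 RNAi, against 5, 2 and 4 counts in GUS RNAi. Its level was 4.89 ± 0.285 CPM in SKI3 RNAi and 1.11 ± 0.171 CPM in GUS RNAi (SD, n = 3 each), with the GUS RNAi level near the floor, and its log2 fold change was 1.96 ± 0.406 (SE, p 0.000603, adjusted p 0.743 in edgeR). Fragment 12364 on chromosome 6 (element 13969, DTX, chr7:51425890-51428919) had 24, 19 and 20 counts in SKI3 RNAi, against 11, 9 and 8 counts in GUS RNAi. Fragment 14713 on chromosome 2 had 22, 18 and 21 counts in SKI3 RNAi, against 12, 8 and 9 counts in GUS RNAi, and its source element 6 (DTX) lies on unplaced sequence. Every SKI3 RNAi library lay above every GUS RNAi library in all of them, and none passed adjustment.

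Among the lower fragments, fragment 30162 on chromosome 3 had the smallest p. It belongs to the Mutator element 7723 (chr4:36474069-36480016) and had 41, 24 and 30 counts in SKI3 RNAi, against 130, 45 and 78 counts in GUS RNAi. The level was 12.1 ± 2.09 CPM in SKI3 RNAi and 25.3 ± 6.49 CPM in GUS RNAi (SD, n = 3 each), with a log2 fold change of -1.17 ± 0.258 (SE, p 0.000953, adjusted p 0.743 in edgeR). All 10 tested fragments of element 7723 had a negative log2 fold change. The element was picked by the p of fragment 30162, and its copies may share reads, so these are not separate measurements. The whole element, with 70 fragments, had 234, 207 and 364 CPM in SKI3 RNAi, against 401, 426 and 340 CPM in GUS RNAi, where SKI3 RNAi replicate 3 lay inside the range of GUS RNAi. Its log2 fold change was -0.62 ± 0.245 (SE, adjusted p 0.737 in edgeR). Fragment 25322 on chromosome 4 (element 6750, DTX) had 4, 7 and 4 counts in SKI3 RNAi and 19, 15 and 16 counts in GUS RNAi. Fragment 20952 on chromosome 7 (element 5219, DTX) had 12, 11 and 12 counts in SKI3 RNAi and 28, 22 and 36 in GUS RNAi. Fragment 19365 on chromosome 5 (element 545, DTX) had 4, 3 and 6 counts in SKI3 RNAi and 26, 8 and 15 in GUS RNAi.

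Copies of a single source element stood on both sides. Element 8847 (DTX singleton family 5297, chr5:102170-109274, 7105 bp) had 82 fragments, of which 13 were tested. Fragment 14195 on chromosome 7 had 23, 24 and 12 counts in SKI3 RNAi, against 6, 7 and 5 counts in GUS RNAi, a log2 fold change of 1.87 ± 0.411 (SE). Fragment 6509, also on chromosome 7, had almost the same counts, at 23, 24 and 13 in SKI3 RNAi and 6, 8 and 5 in GUS RNAi. Fragment 7509 on chromosome 4 had 7, 3 and 6 counts in SKI3 RNAi, against 20, 14 and 15 counts in GUS RNAi, a log2 fold change of -1.41 ± 0.376 (SE). The adjusted p was 0.743 for all 3 in edgeR. Over the whole element the values were 171, 122 and 109 CPM in SKI3 RNAi and 110, 124 and 104 CPM in GUS RNAi, and the groups overlapped. Fragment 7815 on chromosome 7 had 53, 0 and 0 counts in SKI3 RNAi and 26, 14 and 26 in GUS RNAi. Fragment 16395 on chromosome 6 had 30, 0 and 1 in SKI3 RNAi and 17, 9 and 15 in GUS RNAi. Both are among the calls made without SKI3 RNAi replicate 1, described below.

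The same test on fragments summed by source element, chosen after the data were seen, left 3092 long elements. Of these 0 had an adjusted p under 0.05, beside 0.0% of all features in that test. With an unadjusted p under 0.05 in edgeR there were 192, or 6.21%, beside 6.7% of all features. They divide into 118 higher and 74 lower elements, 3.82% and 2.39%, beside 3.81% and 2.89% of all features. Element 14327 (DTX, chr8:3498231-3499208, 19 fragments) had the smallest p, with 40, 28 and 27 counts in SKI3 RNAi against 12, 10 and 7 counts in GUS RNAi. Its log2 fold change was 1.86 ± 0.306 (SE, adjusted p 0.682 in edgeR). Element 7036 (DTX, chr4:15748591-15751327) had 26.3, 37.9 and 17.2 CPM in SKI3 RNAi, against 7.55, 12.5 and 10.9 CPM in GUS RNAi. Among lower elements, element 535 (DTX family 109, chr1:12880600-12882983) had 18.6, 21.1 and 17.99 CPM in SKI3 RNAi, against 28.9, 28.6 and 27.8 CPM in GUS RNAi, a log2 fold change of -0.68 ± 0.170 (SE, adjusted p 0.737 in edgeR).

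Fragments at an unadjusted p under 0.05 were spread over 168 source elements on the higher and 144 on the lower side. Element 3023 (DTX, chr2:19612052-19615564) held 8 of the higher ones, and all 14 of its tested fragments had a positive log2 fold change. Those 8 summed to 60.67, 68.85 and 70.06 CPM in SKI3 RNAi, against 37.5, 30.4 and 28.4 CPM in GUS RNAi. The Tc1-Mariner element 12721 (chr7:19089534-19098926) held 7, which summed to 54.7, 53.8 and 60.5 CPM in SKI3 RNAi, against 21.9, 35.05 and 22.95 CPM in GUS RNAi. On the lower side, the 8 fragments of the Mutator element 2961 (chr2:18177876-18183216) summed to 34.37, 44.75 and 37.90 CPM in SKI3 RNAi, against 67.94, 51.19 and 63.96 CPM in GUS RNAi. Those of element 15027 (DTX, chr8:23294473-23298675) numbered 6 and summed to 49.1, 49.9 and 56.3 CPM in SKI3 RNAi, against 77.8, 78.9 and 79.5 CPM in GUS RNAi. A positive log2 fold change was found in 20 of the 21 tested fragments of element 12721, 1 of 10 of element 2961 and 2 of 21 of element 15027. Copies of an element may share reads and are not separate measurements. The summed fragments were picked by their p, so that their groups had to lie apart.

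With the filter on low counts, calls past adjustment appeared when SKI3 RNAi replicate 1 was left out. Without it, 38 fragments of 26 source elements had an adjusted p under 0.05 in edgeR, 0.438% of those tested, beside 0.973% of all features in that test, and all 38 were lower in the remaining SKI3 RNAi libraries. All 38 were DTX, which made up 79.1% of the fragments of long TIR elements. Element 706 of DTX family 49 held 5 of them, the most of any element. Elements 3157, 2316 and 12833 of the same family were also among the 26. In the sum of that family SKI3 RNAi replicate 1 was likewise the highest library. In each of the 38, SKI3 RNAi replicate 1 had the highest CPM of the 6 libraries. A fixed ratio of 4:0:0 in SKI3 RNAi replicates 1 to 3 to 2:1:2 in GUS RNAi replicates 1 to 3 was sought in features with at least 100 counts over the 6 libraries. Of the 38, 14 had it, within 0.03 in each library's share, and fragments with fewer counts were not assessed. The ratio was not particular to long TIR elements, since 231 of all features had it, including these 14. Of the 14, the one with the most counts was fragment 20309 on chromosome 7 (element 13244, DTX, chr7:33886505-33888441). It had 451, 0 and 0 counts in SKI3 RNAi and 225, 112 and 224 counts in GUS RNAi. A count of 0 allows up to 1.29 CPM in SKI3 RNAi replicate 2 and 1.15 CPM in replicate 3. With all 6 libraries its adjusted p was 0.979 in edgeR.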

How the data were processed

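A table of raw counts over annotated features was deposited by the authors for each of 3 SKI3 RNAi and 3 GUS RNAi libraries of mock-treated roots. Trizol RNA and the NEBNext small RNA kit were used, per the labels' protocols. Cutadapt 2.10, Bowtie 1.3.1 and DESeq2 1.34.0 are named per the submitters' processing notes, without their settings. How multi-mapping reads were counted, whether strand was used, and the build are not given in the sources used here. Where a read was counted at every copy it matches, copies of an element share counts. A stray header line in SKI3 RNAi replicate 3 names reads of 21 to 22 nt and was left out. The tables may hold part of a library, and their totals may not be its full depth. Coordinates stand as in the feature IDs, which follow MtrunA17 names, and no genome was used here.

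CPM values were computed as counts over the total of the table. All features were tested with edgeR 4.0.16 in R 4.3.3 (filterByExpr with a minimum count of 10, TMM factors, quasi-likelihood test, group as the only term), with Benjamini-Hochberg adjustment over all features. The SE is the log2 fold change over the root of its F value. Exact two-sided permutation tests over libraries compared sums between groups, and exact sign-flip tests compared levels of 2 classes within libraries. The scripts were tested on simulated data. DESeq2 1.42.0, other scalings and filters, leaving out libraries and other length limits were alternatives.

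The members and lists were chosen with earlier results of these data known. Named were the 10 fragments with the highest mean CPM, the 5 higher and 5 lower ones with the smallest p, the 5 elements with the highest CPM, any fragment past the threshold, and the longest element with at least 100 counts. Others were named after their values were seen.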

Additional observations from a re-analysis of the deposited data

How the results depend on the processing

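The count of fragments past an adjusted p of 0.05 was 0 in edgeR with TMM factors, DESeq2 size factors and library totals, with at least 1 CPM in 3 libraries, with repeated counts kept once, without the fragments in the fixed ratio, at every length limit and in DESeq2. It was 34 (27 higher) without a filter on low counts, where 0.109% of all features passed, and ran from 0 to 38 with 1 library left out, the 38 without SKI3 RNAi replicate 1. For source elements it ran from 0 to 7, the 7 also without SKI3 RNAi replicate 1, 0.223% beside 1.14% of all features. Against 459 fragments at an unadjusted p under 0.05, there were 2817 of 67172 tested without a filter (4.19%, beside 4.64% of all features), 1202 of 23800 with a minimum of 1 CPM (5.05%, beside 5.73%), 136 with DESeq2 (1.68%, beside 2.38%) and 84 at a threshold of 0.01 (1.04%, beside 1.18%). With 1 library left out there were 409 to 785, the 785 of 9508 without SKI3 RNAi replicate 3 (8.26%, beside 8.94%). In each of these fits the share was below that of all features. Of the 459, 54.7% were higher in SKI3 RNAi. DESeq2 made that share 44.9%, and totals without TMM factors 77.9%. Among all tested features, 1729 were higher and 1446 lower in edgeR with TMM factors. DESeq2 gave 488 higher and 659 lower, and totals without TMM factors 2561 higher and 839 lower. The split thus moved in the same way for all features. It was not taken over all features without a filter or without single libraries. For the long TIR fragments, the share that was higher ran from 42.3%, without SKI3 RNAi replicate 3, to 63.3%, without GUS RNAi replicate 3.

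The lower CPM per kb of long against short elements, -1.01 on the log2 scale, was -0.46 with a limit of 2000 bp, -0.80 with 1000 bp, -1.435 with 500 bp, -1.48 with repeated counts kept once, -1.12 over elements with a count and -0.16 per listed fragment. Its size thus depends on the limit, while long lay below short in each. It ran from -1.03 to -1.0 with 1 library left out, where 5 libraries cannot give a p under 0.0625. The difference in the share of counts, 0.919 percentage points, ran from 0.633 to 1.19 with 1 library left out and was 0.164 on TMM library sizes and 0.287 without the 10 most counted features. The sign of the log2 difference turned for hAT elements, to -0.013 without the 10 most counted features and -0.024 with TMM factors, and for Mutator elements, to -0.051, -0.062 and, without GUS RNAi replicate 3, -0.0027, the lowest of a range up to 0.067 with 1 library left out. The log2 ratio of long to short between groups ran from -0.055 to 0.017 with 1 library left out.

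Fragment 4320 of element 13562 turned to -0.035 without a filter, -0.0047 with a minimum of 1 CPM, -0.16 without SKI3 RNAi replicate 3, -0.21 without GUS RNAi replicate 1 and -0.17 without GUS RNAi replicate 2, with 0.52 as the highest value. Fragment 17935 turned to -0.10 without SKI3 RNAi replicate 3, with 0.83 as the highest value. The other 18 named fragments kept their direction. Fragments 14195, 6509 and 30162 passed at adjusted p-values of 0.0215, 0.0273 and 0.0128 without a filter and under no other alternative.

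Same-numbered libraries deviated together at correlations of 0.0710, 0.190 and 0.251 for replicates 1, 2 and 3, and each library was closest to its own number. The numbers were not taken as pairs, since one value was under 0.1. With the replicate number as a block, 0 fragments passed and 512 had an unadjusted p under 0.05 (6.32%, beside 7.98%). At these depths most single fragments had too few counts for a test, since 8103 of 82973 passed the filter.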
